A study of Mus musculus with 15 samples.

Results

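The mitochondrial genome of the mouse carries 37 genes, and all 37 were followed here among the 39179 genes counted in each of 15 libraries of quadriceps muscle RNA. They were chosen by position alone, as every gene of the mitochondrial chromosome, and comprise 13 mRNAs, 2 rRNAs and 22 tRNAs. The mice were C57BL/6 and were sampled at 3 mo and 19 mo of age. Wild-type mice were compared with mice homozygous for a germline knock-in of Mrps5 V338Y, an exchange in a protein of the small mitochondrial ribosomal subunit that is described as lowering the accuracy of translation. At 3 mo there were 4 mice of each genotype, and at 19 mo there were 3 wild-type and 4 V338Y mice. The labels do not say whether mice of a group shared a litter, so p-values measure only the spread between these animals.

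Mitochondrial DNA is transcribed from both strands into long precursors. The tRNAs lie between the mRNAs and rRNAs in these precursors, and their removal releases most of the messages. The mRNAs encode subunits of respiratory complexes I, III and IV and of the ATP synthase, complex V. The remaining subunits of these complexes come from the nucleus, so each complex draws on both genomes, and muscle holds large amounts of them. The mitochondrial ribosome, of which MrpS5 is a part, translates only the mitochondrial messages.

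Total counts ranged from 8250653 to 18968132 per library, and none of 105 pairs of libraries held identical counts. Mrps5 was measured at 21.2 to 27.5 CPM (counts scaled to library size with edgeR's trimmed mean of M values, TMM) at 3 mo and at 14.96 to 19.3 CPM at 19 mo. This level does not test the labels, since the mutation exchanges an amino acid. The study's methods describe female mice, but the 8 mice of 3 mo had at most 0.575 CPM of Xist, which is transcribed from the inactive X chromosome of female cells, and 163 to 202 CPM of the Y-linked Ddx3y. In the 7 mice of 19 mo Xist was at 506 to 631 CPM and Ddx3y at no more than 0.0827 CPM. By these transcripts the mice of 3 mo read as male and those of 19 mo as female. Every comparison between ages below is therefore also a comparison between sexes, and the effects cannot be told apart.

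A stretch of the mitochondrial genome could hardly be measured. Annotated transcripts (GENCODE M21, GRCm38) were compared by blastn. Mitochondrial mRNAs matched, whole or in part, a chain of 7 pseudogenes on the minus strand of chromosome 1 (24611535 to 24616197) at 99.7% to 100% identity. From the first to the last matching base these hits span positions 6390 to 11042 of chromosome M, 4653 bases. mt-Atp8 had no hit of its own, and the 5 tRNA genes inside are shorter than the 100 bases required. The match of these genes and of the gaps between hits was not tested. The stretch holds 11 genes whole and parts of mt-Co1 and mt-Nd4. As an example picked for its contrast, 100 bases of mt-Co1 inside the stretch (chrM:6488-6587, plus strand) are given. They stand with the same 100 bases of the chromosome 1 copy Gm29216 (chr1:24615991-24616090, minus strand). The last line is Gm13340, an older copy of mt-Co1 on chromosome 2 (chr2:22588388-22588487, minus strand). Capitals mark bases that differ from mt-Co1.
mt-Co1: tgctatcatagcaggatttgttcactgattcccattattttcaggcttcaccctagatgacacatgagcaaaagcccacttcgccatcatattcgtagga
Gm29216: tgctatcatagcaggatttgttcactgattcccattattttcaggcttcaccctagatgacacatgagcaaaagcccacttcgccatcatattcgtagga
Gm13340: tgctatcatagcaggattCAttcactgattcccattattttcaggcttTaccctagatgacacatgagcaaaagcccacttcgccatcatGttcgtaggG

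Gm29216 had 0 differences from mt-Co1 over these bases and Gm13340 had 5. The window was chosen to be identical to Gm29216 with the most differences from Gm13340, so it is not typical. Over the whole alignment with mt-Co1, Gm29216 had 1 mismatch in 483 bases and Gm13340 had 37 in 1545. Gm13340 was counted 3 to 34 times per library, against 61972 to 291444 counts of mt-Co1. A read from bases that are identical on both chromosomes cannot be placed by its sequence on one or the other. Of the 7 chromosome 1 pseudogenes, Gm10222, the copy of mt-Nd4l, was counted 0 to 3 times per library, and the others were not analysed here. Where the reads of the stretch were assigned was not tested.

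Within the stretch counts were low, and for 7 of the 11 genes wholly inside it they were at or near 0 in every mouse. mt-Atp8 and mt-Atp6 encode the 2 mitochondrial subunits of ATP synthase. mt-Atp8 was at 0 in all 15 libraries, and mt-Atp6 was at 0 or 1 count. mt-Co2, a core subunit of cytochrome c oxidase (complex IV), was at 0 or 1 count, and mt-Co3, another core subunit of that enzyme, was at 1 to 7 counts. mt-Nd4l, a small membrane subunit of complex I, was at 3 to 22 counts, and mt-Nd3, another small subunit of that complex, was at 30 to 174. The tRNA genes mt-Ts1, mt-Td and mt-Tk were at 0 in all libraries, while mt-Tg had 13 to 98 counts and mt-Tr 9 to 46. These low counts do not measure how much of the RNA was present. No fold is given for mt-Co2, mt-Atp8, mt-Atp6, mt-Co3, mt-Ts1, mt-Td or mt-Tk, and values of mt-Nd3 and mt-Nd4l are given below only as counted.

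**Figure D1:**
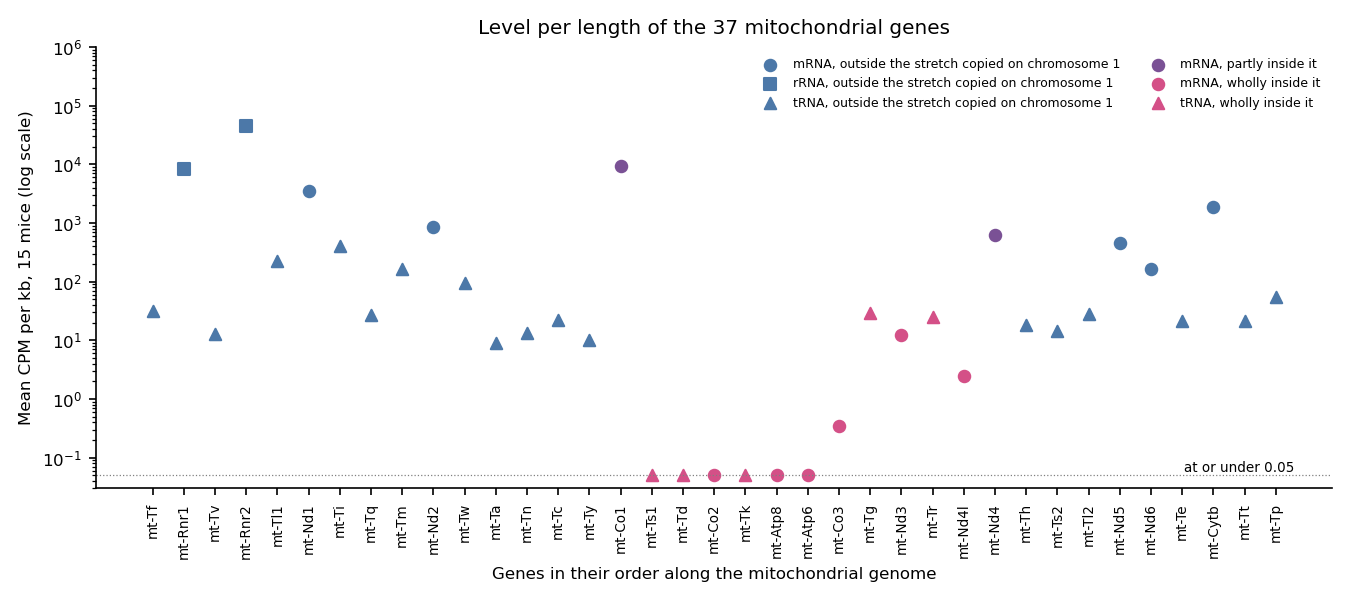
Mean level of each of the 37 genes over the 15 mice, as CPM per kilobase of annotated gene on a log scale, with genes in their order along the mitochondrial genome. Circles are mRNAs, squares rRNAs and triangles tRNAs, and pink symbols are the genes wholly inside the stretch copied on chromosome 1, which include the 6 mRNAs with the lowest levels (values at or under 0.05 are drawn at 0.05).

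The mRNAs and rRNAs outside the stretch were counted deeply, with at least 340 counts in every library. Per kilobase of annotated gene, mt-Rnr2, the rRNA of the large subunit, stood at 46514 CPM per kb in 3 mo wild-type mice, and mt-Rnr1, the rRNA of the small subunit, at 7464 CPM per kb. Among the mRNAs in the same mice, mt-Co1, the catalytic subunit of cytochrome c oxidase, had the highest level per length, 10531 CPM per kb. mt-Nd1, a complex I subunit, followed at 3470 CPM per kb and mt-Cytb, the only mitochondrial subunit of complex III, at 1612 CPM per kb. The level was 428 CPM per kb for mt-Nd2, 400 for mt-Nd4, 234 for mt-Nd5 and 208 for mt-Nd6, all complex I subunits. mt-Co1 and mt-Nd4 lie partly in the copied stretch. Divided only by their 1062 and 502 bases outside it, their levels were 15321 and 1097 CPM per kb. How rRNA was handled bears on mt-Rnr1 and mt-Rnr2, since the study's methods name both an mRNA kit and a step of ribosome depletion.

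Per mouse, the mitochondrial genes that could be counted gave a similar part of all counts at both ages, with a wider spread at 19 mo. The 6 mRNAs wholly inside the copied stretch, at no more than 174 counts in any library, added almost nothing. The share therefore does not measure the output of all 13 mRNAs. The 13 mRNAs made up 2.19%, 2.12%, 2.18% and 2.20% of counts in the 4 wild-type mice of 3 mo. In the V338Y mice of that age the share was 2.17%, 2.10%, 2.22% and 2.27%. At 19 mo it was 1.91%, 1.86% and 2.70% in wild-type mice 2, 4 and 5, and 2.41%, 2.38%, 1.38% and 3.44% in V338Y mice 2, 3, 4 and 5. At 3 mo the group means were 2.17% ± 0.0335 (SD, n = 4) for wild-type and 2.19% ± 0.0729 (SD, n = 4) for V338Y mice. The means at 19 mo were 2.15% ± 0.474 (SD, n = 3) and 2.4% ± 0.840 (SD, n = 4). The groups overlapped in all 4 comparisons. Both the lowest and the highest share belonged to V338Y mice of 19 mo, mouse 4 and mouse 5.

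The share was no test of a change in any one message, since mt-Co1 gave most of it. The 2 rRNAs took 5.97% to 8.99% of counts in 3 mo wild-type mice, 6.38% to 9.68% in 3 mo V338Y mice, 7.68% to 9.41% in 19 mo wild-type mice and 5.72% to 11.0% in 19 mo V338Y mice. The 22 tRNAs together took 0.00523% to 0.0205% of counts over all mice, and 0.0205% was the value of V338Y mouse 5 of 19 mo. With all 37 genes together the share was 9.78% ± 1.30 (SD, n = 4), 10.1% ± 1.34 (SD, n = 4), 10.7% ± 1.30 (SD, n = 3) and 10.6% ± 3.12 (SD, n = 4) in the same order of groups.

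**Figure D2:**
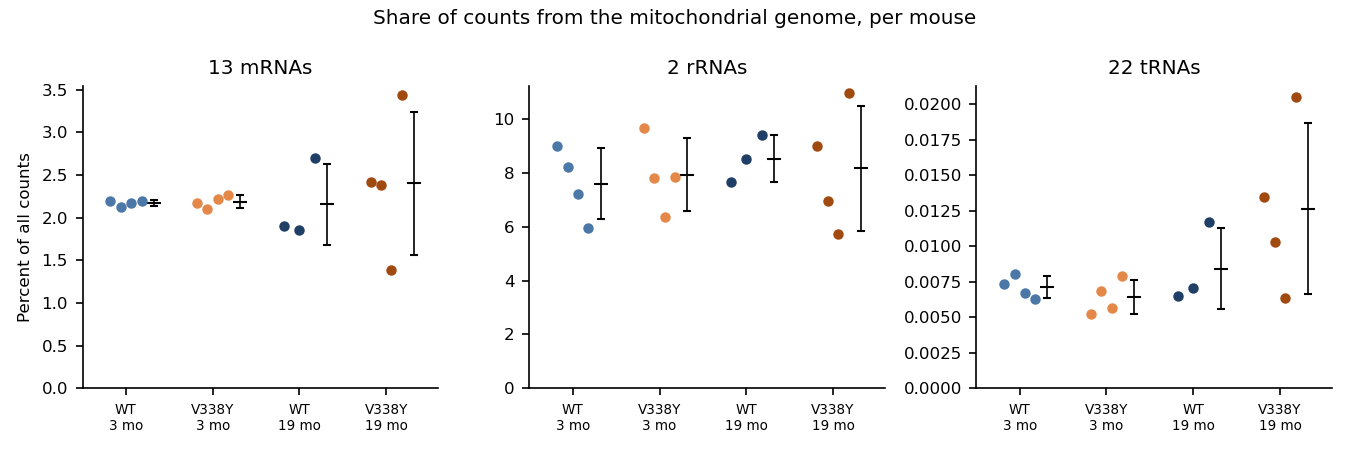
Share of all counts (percent) taken by the 13 mRNAs, the 2 rRNAs and the 22 tRNAs of the mitochondrial genome, with each point a mouse and bars giving the mean ± SD of the group. The mRNA share stays within 2.10% to 2.27% in the 8 mice of 3 mo and spreads from 1.38% to 3.44% in the 7 mice of 19 mo. The 6 mRNAs wholly inside the copied stretch add almost nothing to it.

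The first question was how the mitochondrial transcripts differed with age. Between 3 and 19 mo, mt-Nd2, mt-Nd4 and mt-Nd5 differed in both genotypes, each higher at 19 mo by more than any other mitochondrial mRNA. These 3 genes encode the large antiporter-like subunits of the complex I membrane arm, which take part in proton pumping. mt-Cytb was also higher at 19 mo in both genotypes, to a smaller degree, while mt-Co1 was lower in wild-type mice. The message of mt-Nd1, the subunit that contributes to the ubiquinone site of the same complex, was not called at either genotype.

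In wild-type mice 27 of the 37 genes passed the filter on low counts, and edgeR's quasi-likelihood test called 5 of them higher (18.5%) and 2 lower (7.41%) at 19 mo at an adjusted p under 0.05. Of all 13657 genes tested in this comparison 18.3% were called higher and 17.8% lower, so the share of members called higher was near that of all genes. In V338Y mice 29 members were tested, of which 7 were called higher (24.1%) and 0 lower, where 24.4% of the 13868 genes tested were higher and 22.5% lower. At an unadjusted p under 0.05 there were 13 members (48.1%) in the wild-type and 10 (34.5%) in the V338Y comparison, against 47.2% and 54.4% of all genes tested. The tested members comprised 9 of the 13 mRNAs and both rRNAs in each genotype, and 16 of the 22 tRNAs in wild-type and 18 in V338Y mice. The median log2 fold change of all genes tested with age was 0.02 for the wild-type fit and 0.07 for the V338Y fit.

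Among the complex I messages, mt-Nd2 was at 485, 531, 423 and 339 CPM in the wild-type mice of 3 mo and at 1310, 1104 and 1879 CPM in those of 19 mo. In the V338Y mice it was at 444, 334, 379 and 444 CPM at 3 mo and at 1193, 1852, 743 and 1946 CPM at 19 mo. No mouse of 3 mo reached the level of any mouse of 19 mo. The log2 fold change was 1.69 ± 0.20 (SE) in wild-type mice, 3.22-fold higher (edgeR, adjusted p = 0.000542), and 1.85 ± 0.28 (SE) in V338Y mice, 3.6-fold higher (edgeR, adjusted p = 0.000731).

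mt-Nd5 was at 471, 490, 376 and 367 CPM in the wild-type mice of 3 mo and at 1167, 861 and 2017 CPM in those of 19 mo. The V338Y mice had 449, 344, 411 and 388 CPM at 3 mo and 1241, 1525, 698 and 1875 CPM at 19 mo. Again the ages did not overlap in either genotype. With age mt-Nd5 changed on the log2 scale by 1.66 ± 0.25 (SE) in wild-type mice (edgeR, adjusted p = 0.00157) and 1.75 ± 0.26 (SE) in V338Y mice (edgeR, adjusted p = 0.00069), or 3.17-fold and 3.37-fold.

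mt-Nd4 was at 591, 636, 520 and 456 CPM at 3 mo and at 1122, 1007 and 1579 CPM at 19 mo in wild-type mice. In V338Y mice it was at 500, 415, 424 and 533 CPM at 3 mo and at 1149, 1452, 662 and 1700 CPM at 19 mo. The lowest mouse of 19 mo, V338Y mouse 4, was close to the highest mouse of 3 mo, wild-type mouse 2, and the ages did not overlap. For mt-Nd4 the log2 fold change was 1.17 ± 0.17 (SE) in wild-type mice (edgeR, adjusted p = 0.00128) and 1.42 ± 0.25 (SE) in V338Y mice (edgeR, adjusted p = 0.00173), or 2.25-fold and 2.67-fold. The call of mt-Nd2, mt-Nd4 and mt-Nd5 held under each of the 15 alternatives tried in wild-type and the 16 tried in V338Y mice, with log2 fold changes from 0.94 (mt-Nd4) to 2.06 (mt-Nd2).

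mt-Nd1 served as a contrast within the same complex. It was at 3569, 3480, 3262 and 2971 CPM at 3 mo and at 3347, 3039 and 3543 CPM at 19 mo in wild-type mice, with a log2 fold change of -0.00 ± 0.12 (SE). In V338Y mice it was at 3709, 3070, 3628 and 3997 CPM at 3 mo and at 3447, 4117, 1793 and 4217 CPM at 19 mo, with a log2 fold change of -0.08 ± 0.25 (SE). Only V338Y mouse 4 of 19 mo stood outside the range of the others by a wide margin, and it was the lowest 19 mo mouse for mt-Nd2, mt-Nd4, mt-Nd5, mt-Nd6, mt-Co1, mt-Cytb and both rRNAs. mt-Nd1 had an adjusted p of 0.986 in the wild-type and of 0.818 in the V338Y comparison (edgeR).

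mt-Nd6 is the only mRNA on the other strand, and its end overlaps that of mt-Nd5. It was at 93.2, 178.8, 89.0 and 71.5 CPM at 3 mo and at 46.4, 43.6 and 92.2 CPM at 19 mo in wild-type mice, and at 105, 81.8, 104 and 75.5 CPM and then 85.6, 77.3, 34.1 and 101 CPM in V338Y mice. The ages overlapped in both genotypes. Its log2 fold change was -0.83 ± 0.35 (SE) in wild-type mice (edgeR, adjusted p = 0.0905) and -0.29 ± 0.27 (SE) in V338Y mice (edgeR, adjusted p = 0.408). In wild-type mice it was called lower without mouse 5 of 19 mo, at -1.27 (edgeR, adjusted p = 0.0204), and with no filter on low counts (edgeR, adjusted p = 0.0305). Whether the counting kept strands apart is not given in the sources used here, so reads over the overlap may belong to either gene. The 2 complex I messages counted low, mt-Nd3 and mt-Nd4l, had adjusted p-values of 0.567 and 0.947 in wild-type mice and of 0.169 and 0.414 in V338Y mice (edgeR).

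In complex III, mt-Cytb was at 2123, 1928, 1793 and 1534 CPM at 3 mo and at 2331, 2304 and 3535 CPM at 19 mo in wild-type mice. All 3 wild-type mice of 19 mo were above all 4 of 3 mo. In V338Y mice it was at 1661, 1379, 1445 and 1711 CPM at 3 mo and at 2436, 2642, 1454 and 3713 CPM at 19 mo, where mouse 4 lay within the range of 3 mo. mt-Cytb had a log2 fold change of 0.56 ± 0.18 (SE) in wild-type mice, 1.48-fold higher (edgeR, adjusted p = 0.0347), and 0.74 ± 0.25 (SE) in V338Y mice, 1.66-fold higher (edgeR, adjusted p = 0.0325). The V338Y call rested on every mouse but mouse 4 of 19 mo, since leaving out any other single mouse took the adjusted p to between 0.0516 and 0.0877. In wild-type mice the call was lost without mouse 2, 3 or 4 of 3 mo or without mouse 5 of 19 mo, with adjusted p of 0.0596, 0.0812, 0.0834 and 0.0865.

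In complex IV, mt-Co1 was at 16163, 15857, 16901 and 16162 CPM at 3 mo and at 10132, 9251 and 14387 CPM at 19 mo in wild-type mice. The ages did not overlap, and the log2 fold change was -0.53 ± 0.17 (SE), or 0.693-fold (edgeR, adjusted p = 0.0379). The V338Y mice had 16750, 17555, 17701 and 17025 CPM at 3 mo and 10386, 11545, 6221 and 17005 CPM at 19 mo. Mice 2, 3 and 4 of 19 mo were below every V338Y mouse of 3 mo, and mouse 5 was within their range. With a log2 fold change of -0.60 ± 0.28 (SE), mt-Co1 missed the threshold in V338Y mice (edgeR, adjusted p = 0.103). It passed without V338Y mouse 5 of 19 mo, at -0.86 (edgeR, adjusted p = 0.00861), in DESeq2 (adjusted p = 0.0247) and in the joint fit of all 15 mice (edgeR, adjusted p = 0.0394). The wild-type call was lost when any single mouse other than mouse 5 of 19 mo was left out, with adjusted p between 0.0641 and 0.115.

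The 2 rRNAs of the mitochondrial ribosome differed from each other. mt-Rnr1 was at 8206, 8844, 6628 and 4834 CPM at 3 mo and at 10537, 10384 and 12774 CPM at 19 mo in wild-type mice, so the ages did not overlap. Its log2 fold change was 0.66 ± 0.21 (SE) in wild-type mice, 1.58-fold higher (edgeR, adjusted p = 0.0338). That call was lost without wild-type mouse 3 or 4 of 3 mo or mouse 4 or 5 of 19 mo, with adjusted p of 0.0871, 0.0543, 0.0629 and 0.0758. In V338Y mice mt-Rnr1 was at 8494, 5912, 4794 and 5506 CPM at 3 mo and at 8960, 7695, 5926 and 11919 CPM at 19 mo, and the log2 fold change was 0.49 ± 0.26 (SE; edgeR, adjusted p = 0.14). mt-Rnr2 was at 54662 to 88136 CPM and 67828 to 81465 CPM in wild-type mice of 3 and 19 mo, with a log2 fold change of -0.01 ± 0.20 (SE; edgeR, adjusted p = 0.984). In V338Y mice it ranged from 64348 to 97075 CPM at 3 mo and from 42138 to 85554 CPM at 19 mo, with a log2 fold change of -0.33 ± 0.30 (SE; edgeR, adjusted p = 0.397).

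**Figure D3:**
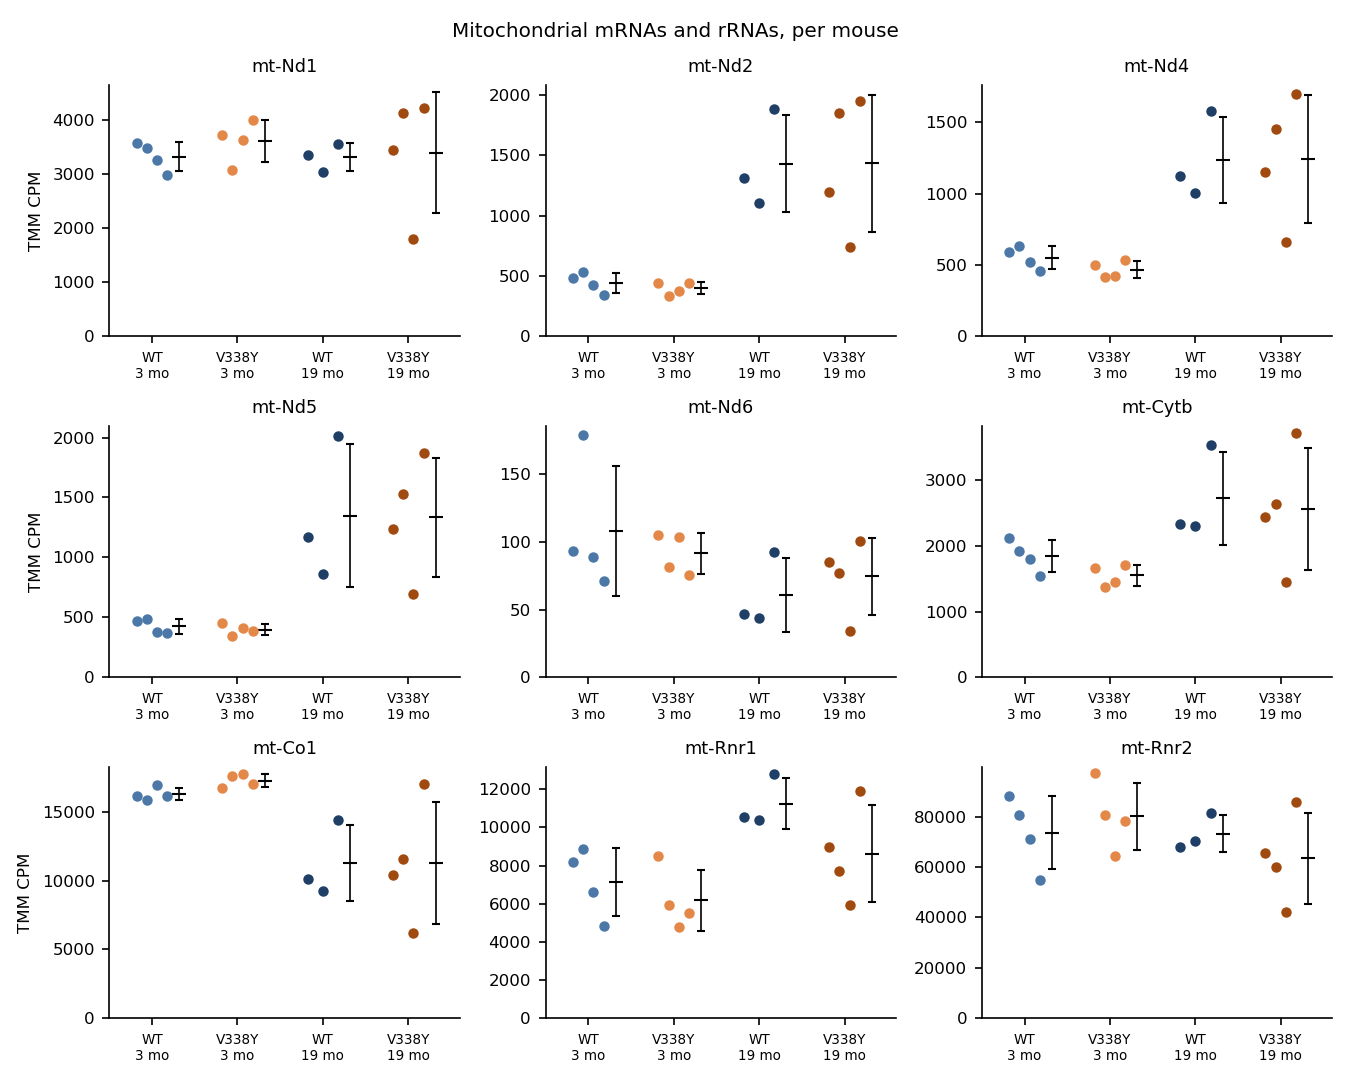
Level (TMM CPM, linear axes from 0) of the 7 mRNAs and 2 rRNAs that lie at least partly outside the copied stretch, with each point a mouse and bars giving mean ± SD of the group (n = 4, 4, 3 and 4). For mt-Nd2, mt-Nd4 and mt-Nd5 every mouse of 19 mo is above every mouse of 3 mo, while the ages overlap for mt-Nd1, with V338Y mouse 4 of 19 mo the lowest mouse and V338Y mice 3 and 5 the highest.

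Among the tRNAs, 4 were called in one of the age comparisons, and their genes are given for their small size and their place beside the messages above. They are printed 5′ to 3′ on the strand of the gene (GENCODE M21 transcripts, GRCm38), with the anticodon in capitals. mt-Tm reads methionine codons (chrM:3845-3913, plus strand), mt-Tw tryptophan (chrM:4950-5016, plus strand), mt-Th histidine (chrM:11546-11612, plus strand) and mt-Tc cysteine (chrM:5192-5257, minus strand).
mt-Tm: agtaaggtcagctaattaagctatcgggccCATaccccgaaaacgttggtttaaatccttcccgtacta
mt-Tw: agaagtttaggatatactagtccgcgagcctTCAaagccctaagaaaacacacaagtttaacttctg
mt-Th: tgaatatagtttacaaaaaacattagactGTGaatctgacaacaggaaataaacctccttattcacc
mt-Tc: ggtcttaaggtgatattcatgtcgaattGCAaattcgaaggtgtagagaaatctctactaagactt

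The 3 tRNAs called higher with age, all in V338Y mice, lie beside messages that rose. mt-Th did not follow its neighbour mt-Nd4 from mouse to mouse at 19 mo. V338Y mouse 5 had the highest mt-Nd4 of its group, 1700 CPM, and the lowest mt-Th, 0.836 CPM. mt-Tm ends at position 3913 and mt-Nd2 starts at 3914, mt-Tw starts at 4950, before the end of mt-Nd2 at 4951, and mt-Th starts at 11546, just past the end of mt-Nd4 at 11544. Other tRNAs beside messages that rose were not called, among them mt-Tl2, which ends at 11741 where mt-Nd5 starts at 11742. Nor was mt-Tt called, which starts at 15289, just past the end of mt-Cytb at 15288. mt-Tm was at 8.28, 6.67, 7.86 and 10.5 CPM at 3 mo and at 16.4, 15.6, 8.33 and 26.4 CPM at 19 mo in V338Y mice, a log2 fold change of 1.03 ± 0.29 (SE; edgeR, adjusted p = 0.017). mt-Tw was at 3.10, 4.67, 3.64 and 4.26 CPM and then at 8.11, 9.46, 4.42 and 14.7 CPM, a log2 fold change of 1.26 ± 0.32 (SE; edgeR, adjusted p = 0.00937). In both cases mouse 4 of 19 mo lay within the range of 3 mo and the other 3 mice lay above it. In wild-type mice the log2 fold changes of mt-Tm and mt-Tw were 0.57 ± 0.22 and 0.71 ± 0.28 (SE) and missed the threshold (edgeR, adjusted p = 0.0674 and 0.0719). How much of a tRNA's count came from fragments that reach in from the neighbouring message was not tested.

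mt-Th was at 0.287, 0.286, 0.662 and 0.231 CPM at 3 mo and at 3.71, 4.43, 1.61 and 0.836 CPM at 19 mo in V338Y mice. The ages did not overlap, and the log2 fold change was 2.81 ± 0.59 (SE; edgeR, adjusted p = 0.00412). Its counts were 5, 3, 8 and 2 at 3 mo, all under the filter of 10, and 37, 66, 16 and 13 at 19 mo. mt-Th was thus tested only because the 19 mo group passed the filter. The call and the lack of overlap are therefore no independent support for a difference. In wild-type mice mt-Th was at 0.355 to 0.547 CPM at 3 mo and at 0.560, 0.370 and 3.47 CPM at 19 mo, and it did not pass the filter on low counts. mt-Tc, on the minus strand, was at 1.82, 2.70, 1.59 and 1.36 CPM at 3 mo and at 0.746, 1.11 and 0.993 CPM at 19 mo in wild-type mice, without overlap. Its log2 fold change was -0.98 ± 0.32 (SE; edgeR, adjusted p = 0.037) in wild-type mice and -0.19 ± 0.38 (SE; edgeR, adjusted p = 0.702) in V338Y mice.

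The other tRNAs were counted low. Of the 22 tRNA genes, 17 had a mean of at least 10 counts per library, 2 had less and 3 were at 0 throughout. mt-Ti, which reads isoleucine codons, had the highest mean, 362 counts, followed by mt-Tl1, a leucine tRNA, with 218. mt-Ti was at 17.7 to 35.6 CPM in V338Y mice of 3 mo and at 23.2, 27.6, 16.7 and 70.3 CPM in those of 19 mo. mt-Tl1 was at 11.7 to 16.9 CPM and then at 17.4, 20.4, 9.94 and 34.8 CPM. The log2 fold changes with age were 0.44 for mt-Ti and 0.58 for mt-Tl1 in V338Y mice and -0.08 and 0.37 in wild-type mice, and none was called. Of mt-Tf, mt-Tv, mt-Tq, mt-Tn, mt-Tg, mt-Tr, mt-Ts2, mt-Tl2, mt-Te, mt-Tt and mt-Tp, all with a mean of at least 10 counts, none was called in any comparison.

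By strand, the 28 genes of the plus strand and the 9 of the minus strand were compared as a description made after the values were seen. In wild-type mice all 7 tested genes of the minus strand had negative log2 fold changes with age, with a median of -0.94, against 8 of 20 on the plus strand, with a median of 0.27. In V338Y mice 4 of 7 were negative on the minus strand, with a median of -0.02, against 3 of 22 on the plus strand, with a median of 0.85. Of the minus-strand genes, only mt-Tc in wild-type mice was called.

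Ratios within a mouse do not depend on library size or scaling, and several of them set the ages apart fully. They are given with no test, since they were chosen after the levels were seen. There were 0.104 to 0.153 counts of mt-Nd2 per count of mt-Nd1 in the 8 mice of 3 mo and 0.346 to 0.530 in the 7 mice of 19 mo. For mt-Nd5 per mt-Nd1 the ranges were 0.0971 to 0.141 and 0.283 to 0.569. For mt-Nd4 per mt-Nd1 they were 0.117 to 0.183 and 0.331 to 0.446, and for mt-Cytb per mt-Nd1 they were 0.398 to 0.595 and 0.642 to 0.998. V338Y mouse 4 of 19 mo, which had the lowest levels, had 0.414 counts of mt-Nd2 per count of mt-Nd1, within the range of the other mice of its age.

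Other ratios went the opposite way or joined the rRNAs. mt-Co1 per mt-Nd1 was 4.26 to 5.72 at 3 mo and 2.80 to 4.06 at 19 mo. mt-Nd6 per mt-Nd5 was 0.195 to 0.365 at 3 mo and 0.0398 to 0.0690 at 19 mo. mt-Rnr1 per mt-Rnr2 was 0.0703 to 0.110 at 3 mo and 0.128 to 0.157 at 19 mo. The ages did not overlap in any of these ratios. By contrast mt-Nd5 per mt-Nd2 was 0.874 to 1.08 at 3 mo and 0.780 to 1.07 at 19 mo, and the ages overlapped. mt-Nd4 per mt-Nd2 was 1.12 to 1.35 at 3 mo and 0.784 to 0.963 at 19 mo, without overlap.

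**Figure D4:**
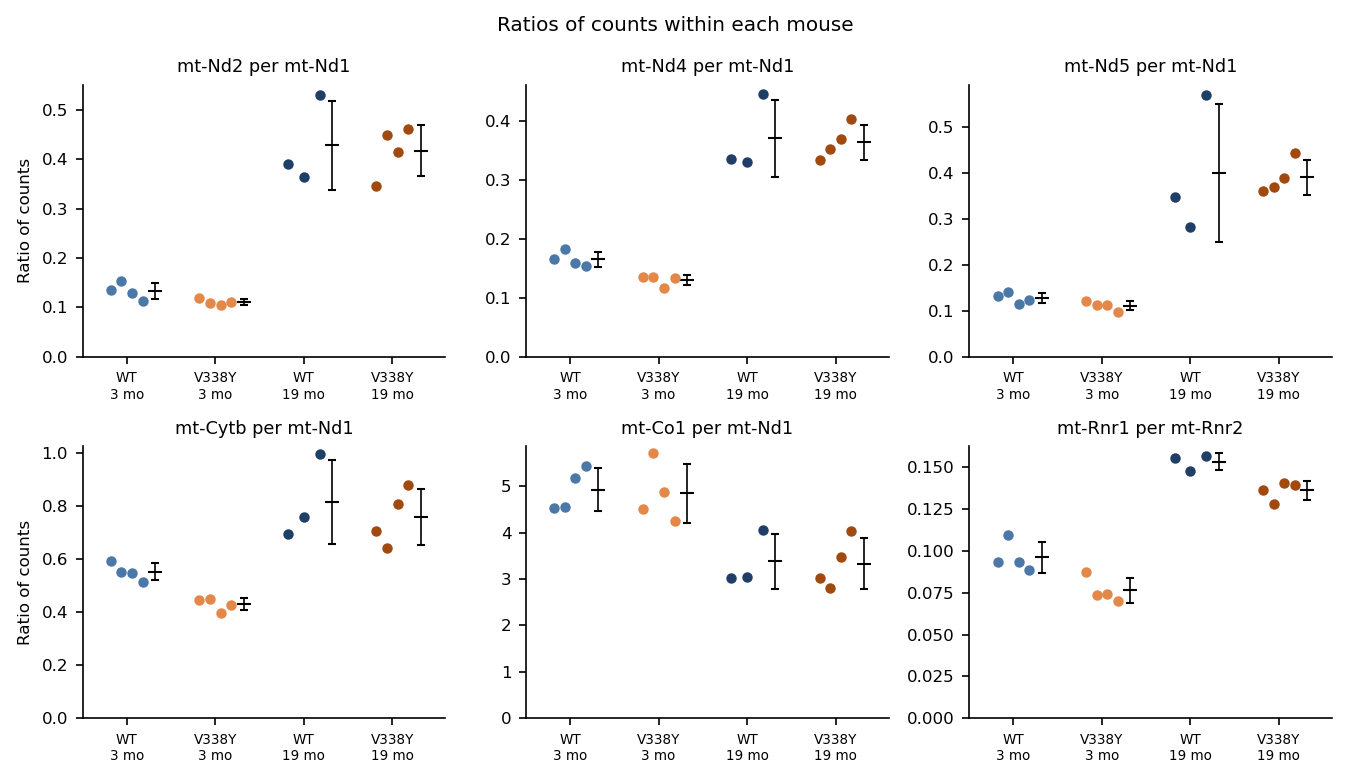
Ratio of counts of one mitochondrial transcript to another within each mouse (points), with mean ± SD of the group beside them (n = 4, 4, 3 and 4). In each of the 6 panels the mice of 19 mo lie apart from those of 3 mo, for example at 0.128 to 0.157 against 0.0703 to 0.110 for mt-Rnr1 per mt-Rnr2.

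A list of 43 nuclear-encoded partners, some of those in each complex, moved mostly the other way from mt-Nd2, mt-Nd4, mt-Nd5 and mt-Cytb. With age in wild-type mice, 14 of 14 listed nuclear subunits of complex I, 8 of 8 of complex III, 10 of 10 of complex IV and 11 of 11 of complex V were called lower, with median log2 fold changes of -0.66, -0.74, -0.80 and -0.63. In V338Y mice 14 of 14, 7 of 8, 10 of 10 and 10 of 11 were lower, with medians of -0.68, -0.74, -0.81 and -0.70. Cyc1 of complex III and Atp5d of complex V were the members not called. Among all genes tested, 17.8% were called lower in wild-type and 22.5% in V338Y mice. In complex I, Ndufb10, an accessory subunit, fell by 0.78 ± 0.09 (SE) on the log2 scale in wild-type mice (edgeR, adjusted p = 0.000361). In complex IV, Cox7c fell by 0.93 ± 0.08 (SE) in wild-type mice (adjusted p = 0.000129) and by 1.14 ± 0.15 (SE) in V338Y mice (edgeR, adjusted p = 0.000352).

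Summed over the 13 mRNAs and over the 43 nuclear subunits, the ratio of mitochondrial to nuclear CPM was 1.62 ± 0.10 (SD, n = 4) in wild-type and 1.59 ± 0.0815 (SD, n = 4) in V338Y mice of 3 mo. At 19 mo it was 2.4 ± 0.229 (SD, n = 3) and 2.32 ± 0.518 (SD, n = 4). The mitochondrial sum held almost nothing of mt-Atp8, mt-Atp6, mt-Co2 and mt-Co3, while the nuclear sum included subunits of complexes IV and V. The ratio is therefore not a balance of the whole of both genomes. The nuclear sum was 13462 to 15672 CPM at 3 mo and 6738 to 11039 CPM at 19 mo, with the lowest value again in V338Y mouse 4.

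**Figure D5:**
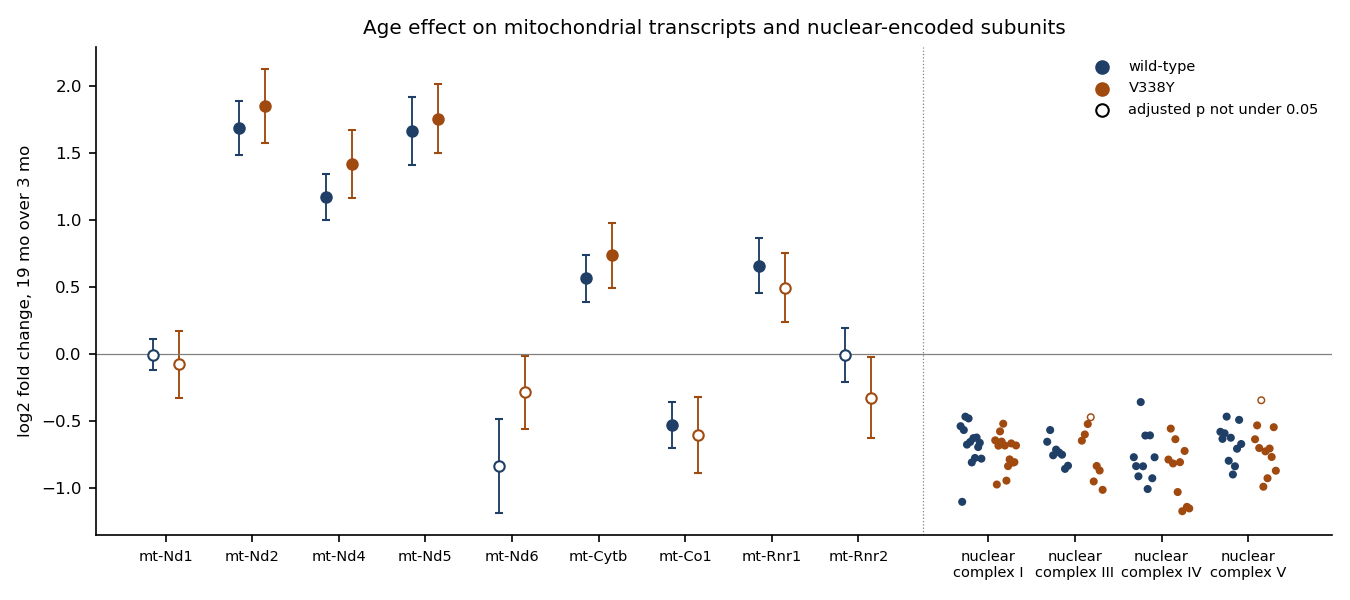
log2 fold change from 3 to 19 mo in wild-type (dark blue) and V338Y mice (brown), with bars of ± SE for the mitochondrial genes on the left and a point for each listed nuclear-encoded subunit of complexes I, III, IV and V on the right. Open symbols did not reach an adjusted p under 0.05 in edgeR, and mt-Nd2, mt-Nd4, mt-Nd5 and mt-Cytb lie above 0 in both genotypes while each of the 43 nuclear subunits plotted lies below it.

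Genes that act on mitochondrial transcripts were also read from lists chosen for their roles. Of the transcription genes, 3 of 12 tested were lower in wild-type mice and 6 lower and 1 higher in V338Y mice. The median log2 fold changes were -0.18 and -0.34. Over all genes tested, 17.8% were called lower in wild-type mice, and 22.5% lower and 24.4% higher in V338Y mice. Tfam, which packages mitochondrial DNA and starts its transcription, fell by 0.68 ± 0.09 (SE) in wild-type mice (edgeR, adjusted p = 0.000873) and by 0.95 ± 0.10 (SE) in V338Y mice (edgeR, adjusted p = 0.000183). Tefm, the elongation factor, fell by 0.77 ± 0.15 (SE) and 0.83 ± 0.16 (SE) (edgeR, adjusted p = 0.00421 and 0.0025). Polrmt, the polymerase itself, was the gene called higher in V338Y mice, with a log2 fold change of 0.36 (edgeR, adjusted p = 0.0461).

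Of the genes of RNA processing and decay, 16 of 24 tested were lower in wild-type and 15 of 24 in V338Y mice, and 0 were higher in either (medians -0.36 and -0.32). Trmt10c, a subunit of the enzyme that cuts tRNAs at their 5′ ends, fell by 0.49 ± 0.09 (SE) in wild-type mice (edgeR, adjusted p = 0.00381). Slirp, which binds mitochondrial mRNAs together with Lrpprc, fell by 0.88 ± 0.16 (SE) in V338Y mice (edgeR, adjusted p = 0.00185). Of 8 genes of rRNA modification, 4 were lower in each genotype, with medians of -0.32 and -0.35, among them Mrm2, a methyltransferase of the large rRNA, which fell by 0.75 ± 0.19 (SE) in wild-type mice (edgeR, adjusted p = 0.0143).

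Markers of fiber and cell type also differed between these mice. All 9 markers of skeletal muscle fibers were counted, with summed levels of 143810 to 166704 CPM at 3 mo and 74118 to 146470 CPM at 19 mo. The 7 slow fiber markers summed to 49.0 to 173 CPM at 3 mo, to 67.8, 434 and 808 CPM in wild-type mice 2, 4 and 5 of 19 mo, and to 128, 58.4, 133 and 2686 CPM in V338Y mice 2, 3, 4 and 5. All 7 were called higher in wild-type and none in V338Y mice (edgeR). Wild-type mouse 2 and V338Y mice 2, 3 and 4 of 19 mo had slow fiber sums within the 3 mo range and mt-Nd2 levels of 1310, 1193, 1852 and 743 CPM. Wild-type mice 4 and 5 and V338Y mouse 5, with sums above that range, had mt-Nd2 at 1104, 1879 and 1946 CPM. The part of fiber type in the results was not tested.

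The remaining marker lists were spread within groups. Adipocyte markers summed to 301 to 1534 CPM at 3 mo and to 222 to 1367 CPM at 19 mo, with 2 of 8 lower in wild-type and 3 of 8 higher in V338Y mice. Red blood cell markers summed to 157 to 322 CPM and 98.0 to 845 CPM, with 2 lower in wild-type and 1 higher in V338Y mice. Macrophage markers summed to 177 to 332 CPM and 271 to 384 CPM, with 4 of 6 higher in each genotype. No marker of these lists was at 0 in all mice, and their part in the results was not tested. In bulk muscle, fewer cells of a type and less RNA per cell cannot be told apart.

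The second question was whether the V338Y exchange, which acts on the ribosome that reads these messages, went with other levels of them. At 3 mo 0 of 27 members tested were called by edgeR, with 2 at an unadjusted p under 0.05 (7.41%, against 9.7% of all genes tested), where 0.075% of the 13333 genes tested were called in either direction. At 19 mo 0 of 28 were called, with 0 at an unadjusted p under 0.05, where 0.0434% of 13833 genes were called. DESeq2 also called 0 members at each age. For each of the 37 genes the levels of V338Y and wild-type mice of the same age overlapped. This was fixed in advance for mt-Atp8, mt-Ts1, mt-Td and mt-Tk, which were at 0 in every mouse. The share of all genes that overlap in this way was not computed, so the overlap is only a description.

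Of the ratios within a mouse given above, 1 set the genotypes apart at both ages. mt-Rnr1 per mt-Rnr2 was 0.0884 to 0.110 in wild-type and 0.0703 to 0.0875 in V338Y mice of 3 mo, and 0.148 to 0.157 and 0.128 to 0.141 in those of 19 mo, so every V338Y mouse was below every wild-type mouse of its age. At 3 mo the V338Y mice were also all below the wild-type mice in mt-Nd4 per mt-Nd1, at 0.117 to 0.135 against 0.154 to 0.183, and in mt-Cytb per mt-Nd1, at 0.398 to 0.449 against 0.516 to 0.595. At 19 mo the genotypes overlapped in both, and in the other ratios they overlapped at each age. These ratios were not tested, as they were chosen after the levels were seen.

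At 3 mo the spread was small enough for narrow estimates. The log2 fold change of V338Y over wild-type mice was 0.12 ± 0.09 (SE) for mt-Nd1, 0.09 ± 0.06 (SE) for mt-Co1, -0.15 ± 0.14 (SE) for mt-Nd2, -0.23 ± 0.11 (SE) for mt-Nd4, -0.09 ± 0.11 (SE) for mt-Nd5 and -0.25 ± 0.11 (SE) for mt-Cytb. The last had the smallest p among the mRNAs (edgeR, adjusted p = 0.499). mt-Rnr1 was at -0.20 ± 0.20 (SE) and mt-Rnr2 at 0.12 ± 0.16 (SE).

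At 19 mo the errors were larger. The log2 fold change was 0.02 ± 0.34 (SE) for mt-Nd2, 0.03 ± 0.31 (SE) for mt-Nd4, 0.01 ± 0.37 (SE) for mt-Nd5, 0.06 ± 0.29 (SE) for mt-Nd1, -0.06 ± 0.31 (SE) for mt-Cytb and 0.03 ± 0.35 (SE) for mt-Co1. The mean levels of mt-Nd2 were 1431 ± 402 CPM (SD, n = 3) in wild-type and 1434 ± 569 CPM (SD, n = 4) in V338Y mice. These data do not show that the genotypes were alike at 19 mo, given errors of this size. mt-Rnr1 was at -0.35 ± 0.28 (SE) and mt-Rnr2 at -0.18 ± 0.36 (SE).

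The third question was whether the difference between ages itself differed between genotypes. In the fit of all 15 mice 0 of 30 members tested were called for the interaction of age and genotype by edgeR, with 1 at an unadjusted p under 0.05, mt-Tq, the glutamine tRNA, with 7 to 58 counts per library. DESeq2 called 0 members as well. Of all 14128 genes tested 0% were called, with 1361 at an unadjusted p under 0.05. The difference between the log2 fold changes with age, V338Y less wild-type, was 0.15 ± 0.38 (SE) for mt-Nd2, 0.24 ± 0.34 (SE) for mt-Nd4, 0.08 ± 0.40 (SE) for mt-Nd5, 0.16 ± 0.33 (SE) for mt-Cytb, -0.08 ± 0.35 (SE) for mt-Co1 and -0.17 ± 0.35 (SE) for mt-Rnr1. mt-Co1, mt-Rnr1, mt-Tm, mt-Tw, mt-Th and mt-Tc, each called in one genotype only, are therefore not shown to differ between genotypes in their age effect.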

How the data were processed

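Libraries were made from quadriceps RNA extracted with TRIzol and sequenced on an Illumina instrument. The authors deposited estimated counts per gene as whole numbers, which their methods ascribe to RSEM with an Ensembl annotation; the submitters' processing notes also name STAR 2.4.2a. The methods and the labels give different mouse assemblies, so coordinates here come from GENCODE M21 (GRCm38). Mice were grouped by age and genotype from the labels. The members, gene lists and comparisons were chosen with earlier results of these data known, and all mRNAs and rRNAs and the tRNAs with a mean of at least 10 counts were named.

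A gene was tested where 10 or more counts were found in 50% or more of the animals of either group compared. These genes were fitted with edgeR 4.0.16 (quasi-likelihood test, two-sided, TMM) in R 4.3.3, each comparison apart, with Benjamini-Hochberg adjustment over all genes tested and a threshold of 0.05. Each call beside a fold change refers to this fit. DESeq2 1.42.0, other scalings, no filter, a joint fit, a replicate block and each mouse left out were tried. The scripts were tested on simulated data. Copies were sought with blastn 2.17.0 (at least 90% identity over 100 bases).

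Mice of different groups carried the same numbers. At 19 mo the deviations of same-numbered mice from their group means had correlations of 0.132, 0.239 and 0.40. The highest correlation at 19 mo, 0.467, was between mice of different numbers, V338Y mouse 3 and wild-type mouse 2. The other differently numbered pairs at 19 mo were all negative, from -0.407 to -0.0208. Pairing by number at 19 mo is therefore neither shown nor excluded by these values. The block took the genes called for genotype at 19 mo from 6 to 110, and the members called stayed at 0. At 3 mo and across ages the correlations of same-numbered mice ranged from -0.162 to 0.141. Those of differently numbered mice at 3 mo ranged from -0.246 to 0.281.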

Additional observations from a re-analysis of the deposited data

Results flagged for a closer look

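Of 123 groups of 4 mice tested for a single mouse far from the others, over levels, shares and ratios of the mitochondrial genes, 7 had one, and chance gives about 1 in 20. V338Y mouse 5 of 19 mo was far above the other 3 of its group for mt-Nd3, at 11.2 CPM, and for mt-Tg, at 6.30 CPM, both genes inside the stretch copied on chromosome 1. V338Y mouse 1 of 3 mo was far below its group for mt-Tc, at 1.03 CPM, and for mt-Tg, at 0.747 CPM. V338Y mouse 3 of 3 mo was above its group for mt-Th, at 0.662 CPM, and below it in its ratio of mt-Nd4 to mt-Nd1, at 0.117. V338Y mouse 2 of 3 mo was above its group for mt-Tt, at 1.72 CPM. The tRNA values rest on few counts.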

How the results depend on the processing

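Under other scalings (relative log expression, upper quartile, nuclear genes alone, without the 10 most counted genes) the members called with age stayed at 7 in each genotype. A joint fit of all 15 mice called 3 in wild-type mice, where mt-Co1, mt-Cytb and mt-Rnr1 had adjusted p of 0.122, 0.0807 and 0.0571; the cause was not tested. Leaving out each mouse gave 4 to 8 in wild-type mice, with 4 without mouse 3 of 3 mo or mouse 4 of 19 mo, and 6 to 12 in V338Y mice, with 12 without mouse 4 of 19 mo. With mice of the same number as a replicate block, 6 members were called in wild-type (3 higher, 3 lower) and 7 in V338Y mice (6 higher, 1 lower). Under the block mt-Cytb was lost in wild-type (adjusted p = 0.107) and V338Y mice (adjusted p = 0.144) and mt-Rnr1 in wild-type mice (adjusted p = 0.0843), while mt-Nd6 fell in wild-type mice (adjusted p = 0.0148) and mt-Co1 in V338Y mice (adjusted p = 0.0265). Across ages these mice shared only a number. The block gave 0 members for genotype at either age and for the interaction. Among the mRNAs and rRNAs no called result changed direction under any alternative. The called tRNAs, mt-Tm, mt-Tw, mt-Th and mt-Tc, were not followed one by one through the alternatives. The log2 ratio of the mean mRNA share, 19 over 3 mo, was -0.01 in wild-type mice (-0.21 to 0.09 with each mouse left out) and 0.14 in V338Y mice (-0.09 to 0.33), and V338Y over wild-type it was 0.01 at 3 mo (-0.01 to 0.03) and 0.16 at 19 mo (-0.07 to 0.35). Depth limits the tRNAs, 19 of which had a mean under 100 counts per library, and the copied stretch limits mt-Nd3, mt-Nd4l and the genes at 0.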

Other observations

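The 3 neighbouring tRNAs mt-Th, mt-Ts2 and mt-Tl2 varied between mice of 19 mo in a pattern unlike that of the mRNAs around them. mt-Ts2, a serine tRNA, was at 0.311, 0.444 and 2.23 CPM in wild-type mice 2, 4 and 5 while V338Y mice 2, 3, 4 and 5 had 3.41, 1.81, 0.201 and 0.193 CPM. mt-Tl2, a leucine tRNA, was at 9.02 CPM in V338Y mouse 2 and at 0.602 to 2.44 CPM in the other 6 mice. The nuclear genes Gm10721 and Gm10715, chosen after their values were seen, were highest in the 3 mice that were also highest for mt-Th and mt-Ts2 at 19 mo. Gm10721 was at 39.6, 5.63 and 4.96 CPM in V338Y mice 2 and 3 and wild-type mouse 5, and at no more than 0.502 CPM in the others. Gm10715 was at 37.3, 1.48 and 1.08 CPM in these 3 mice and at no more than 0.502 CPM in the others. mt-Nd5, which follows mt-Tl2, was at 1875 CPM in V338Y mouse 5, which was low for mt-Th, mt-Ts2 and both nuclear genes.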
